A study of Mus musculus with 8 samples.

Results

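Transcripts of 10 genes of iron handling were followed in whole mouse liver after partial hepatectomy, out of 34465 genes listed. They were picked out by gene symbol. The members are the iron hormone hepcidin (Hamp), the genes that inform it of iron stores (Bmp6, Hfe2, Tfr2), the proteins that carry iron in and out of cells (Trf, Tfrc, Slc40a1), the ferritin subunits (Fth1, Ftl1) and heme oxygenase 1 (Hmox1). All 10 were found, Tfr2 under its older symbol Trfr2. A filter on low values removed none of them, while Trf, listed at 0 in 1 library, is described by its separate values without a fold change, so that 9 members were tested.

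Hepcidin is a small peptide made by hepatocytes that binds ferroportin, the iron exporter encoded by Slc40a1, and causes it to be taken in and degraded, so that less iron reaches the blood. Its gene is switched on by iron through bone morphogenetic proteins (BMP) and SMAD factors, with hemojuvelin and transferrin receptor 2 on the hepatocyte surface, and by inflammation through interleukin 6 (IL-6) and STAT3. Ferritin, the transferrin receptor and ferroportin are in addition controlled after transcription, by iron regulatory proteins that bind a stem-loop in their messenger RNAs.

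The study asked how loss of b-PDGFR (gene Pdgfrb), which binds platelet-derived growth factor, from hepatic stellate cells affects liver regrowth. RNA sequencing gave 8 libraries, 2 each from Cre-positive livers and Cre-negative livers 72 h after partial hepatectomy, and from Cre-positive livers and Cre-negative livers after a sham operation. All mice carried b-PDGFR fl/fl alleles, were of the strain 129S4/SvJae/FVB and were 3 months old, and the Cre-positive ones carried GFAP-Cre, active in stellate cells according to the labels. The labels speak of duplicates and not of separate animals, so p-values measure only the spread between these samples, which may be technical. Pdgfrb, the targeted gene, had a signal of 63.1 and 99.9 in Cre-positive and 122.6 and 70.5 in Cre-negative livers after hepatectomy, against 59.4 and 46.0 in Cre-positive and 49.8 and 63.3 in Cre-negative livers after sham. No difference by genotype was detected with limma (-0.16 on the log2 scale, adjusted p = 0.85 averaged over operations). Whole liver holds cells that keep the gene, so genotypes are given as labelled.

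The values are a normalized signal of unknown scale, and the depth behind them is unknown. Signal summed to between 8617664 and 11583777 per library. The hepatectomy libraries varied more between replicates than the sham libraries: the median gene had a ratio of the higher to the lower replicate of 1.67 in Cre-positive hepatectomy and 1.385 in Cre-negative hepatectomy, against 1.163 in Cre-positive sham and 1.171 in Cre-negative sham. Cre-positive hepatectomy replicate 2 stood apart. Its genes under 40% GC lay at a median of -1.8 (log2) from the sham mean and its genes of 55% GC or more at 0.65, against -0.08 and -0.12 in Cre-positive hepatectomy replicate 1. Results of some members are therefore also given without it. Those of other genes on the lists are given with all 8 libraries only.

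Hamp had a signal of 31004 and 7376 in Cre-positive and 4396 and 327 in Cre-negative hepatectomy livers, against 6497 and 12207 in Cre-positive and 16651 and 13682 in Cre-negative sham livers. The Cre-negative hepatectomy libraries were the lowest of the 8, below every sham library, while the Cre-positive hepatectomy libraries included the highest of all and overlapped the sham range. The 4 hepatectomy libraries spanned 94.8-fold, against 2.56-fold for the 4 sham libraries. Replicates differed 4.2-fold in Cre-positive hepatectomy and 13.4-fold in Cre-negative hepatectomy, where 0.414% of all genes had a larger replicate ratio than Hamp. The group means were 19190 ± 16710 and 2362 ± 2877 after hepatectomy in Cre-positive and Cre-negative livers, and 9352 ± 4038 and 15170 ± 2100 after sham in Cre-positive and Cre-negative livers (SD, n = 2 each).

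**Figure D1:**
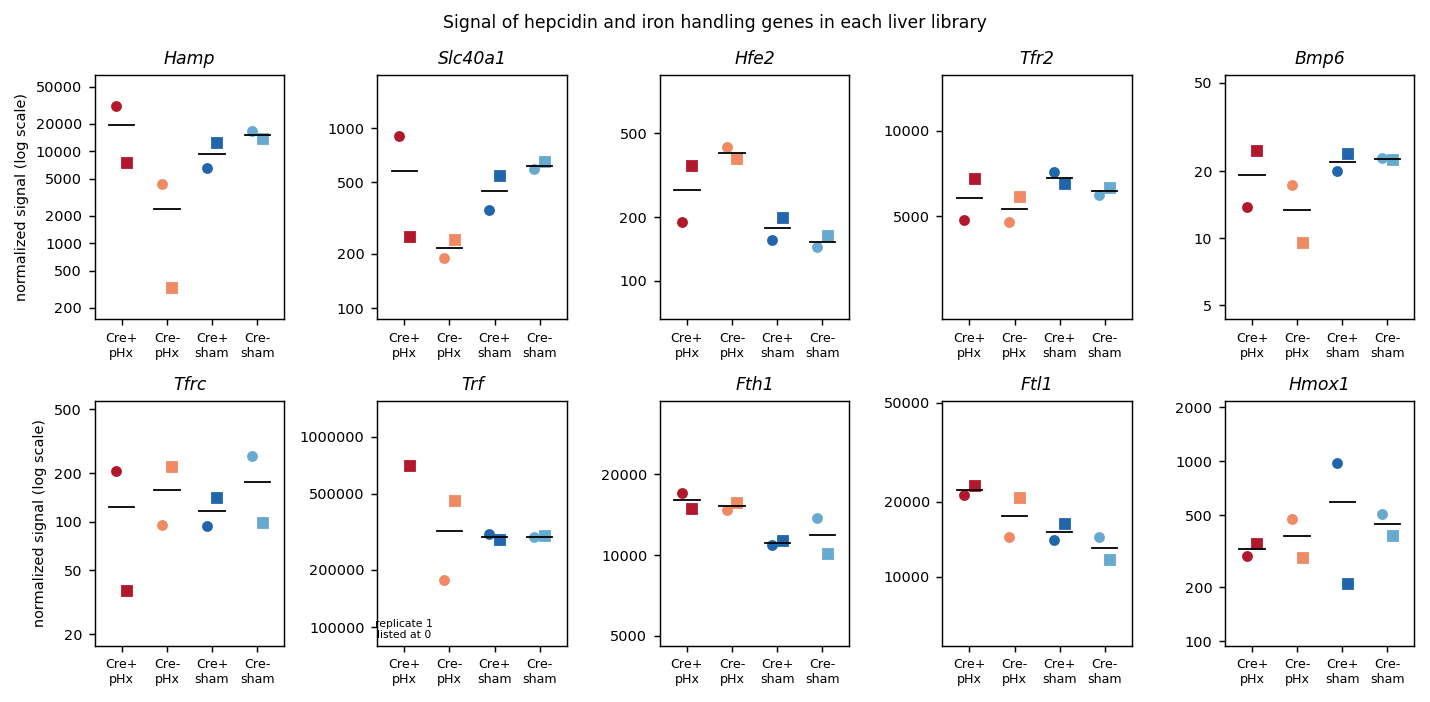
Signal of the 10 members in each of the 8 libraries on a logarithmic axis (pHx, partial hepatectomy; circles, replicate 1; squares, replicate 2; bars, group means). Hamp spans 327 to 31004 in the hepatectomy libraries and 6497 to 16651 in the sham libraries, and Trf is listed at 0 in Cre-positive hepatectomy replicate 1.

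The log2 fold change of Hamp, hepatectomy over sham, was 0.76 in Cre-positive livers (SE 1.17, 95% interval -1.98 to 3.51, adjusted p = 0.788, limma) and -3.65 in Cre-negative livers (SE 1.17, 95% interval -6.4 to -0.9, adjusted p = 0.155). Neither passed the adjusted threshold of 0.05. Of the 9 tested members, 0 passed in Cre-positive livers, where 0.943% of all genes were called, and 0 in Cre-negative livers, where 1.11% were called. Averaged over the genotypes, Hamp differed by -1.44 (95% interval -3.39 to 0.5, adjusted p = 0.317) and again 0 of 9 members passed, against 4.49% of all genes. At an unadjusted p under 0.05 the members numbered 0 in Cre-positive livers, 3 in Cre-negative livers (Hamp, Hfe2 and Slc40a1) and 3 in the average (Hfe2, Fth1 and Ftl1), beside 13.5%, 21.3% and 23.8% of all genes tested in the same comparisons. The median difference of the 9 members was 0.12 in Cre-positive and -0.21 in Cre-negative livers, beside 0.02 and 0.21 over all genes tested.

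**Figure D2:**
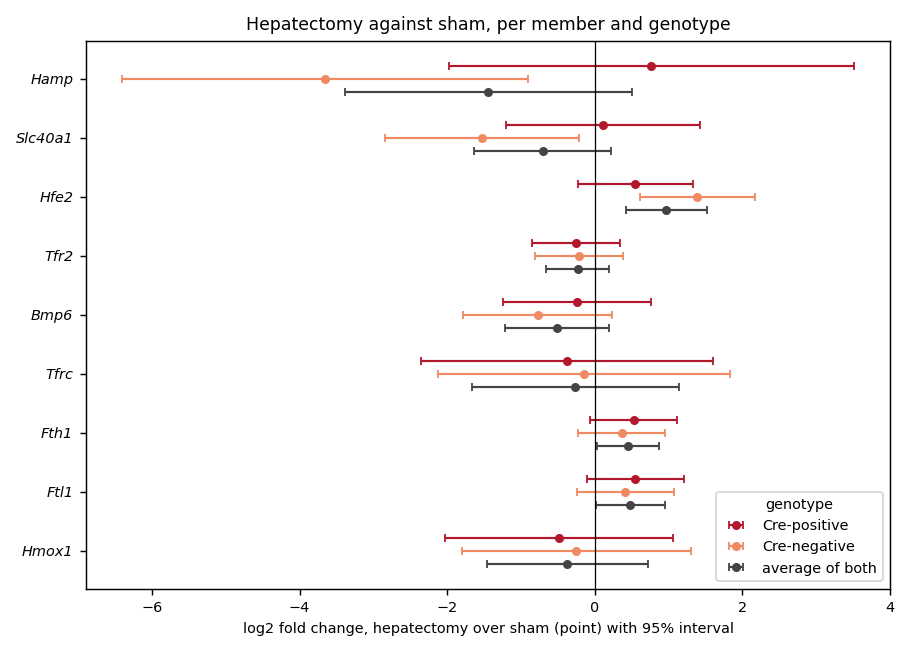
Log2 difference of each tested member between hepatectomy and sham livers (points) with its 95% interval from limma (lines), in Cre-positive and Cre-negative livers. No member passed the adjusted threshold of 0.05, and the Hamp estimates lie at 0.76 in Cre-positive and -3.65 in Cre-negative livers.

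The Hamp estimates rested on the libraries in unequal measure. In Cre-positive livers the value was -0.27 without hepatectomy replicate 1, the library at 31004, and 1.8 without hepatectomy replicate 2. In Cre-negative livers it was -1.78 without hepatectomy replicate 2, the library at 327, and -5.52 without hepatectomy replicate 1. Hamp was lower than genes of like GC in both Cre-negative hepatectomy libraries. It lay at -1.4 and -5.14 from the sham mean in replicates 1 and 2, where the genes within 2 GC percentage points had medians of 0.14 and 0.1. In whole liver, fewer cells of a type and less RNA per cell cannot be told apart, and this holds for every gene here.

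The mouse has a near-identical second hepcidin gene, Hamp2, and reads may have been shared between the copies, so that the separate values of both are uncertain. Hamp2 had 588.6 and 374.4 in Cre-positive and 267.4 and 36.7 in Cre-negative livers after hepatectomy, against 433.7 and 344.5 in Cre-positive and 941.1 and 315.5 in Cre-negative livers after sham. Its lowest values were in the same libraries as those of Hamp. The log2 difference between hepatectomy and sham was 0.28 in Cre-positive livers and -2.44 in Cre-negative livers (adjusted p = 0.189). The promoters of both genes show where the BMP and STAT inputs are known to act, and are printed from RefSeq's table (build GRCm38.p6, which is not the build of the deposited values), with the BMP-responsive element GGCGCC and the STAT element TTCNNNGAA in capitals. The stretch of Hamp is chr7:30944088-30944168 on the minus strand, 139 to 59 bases upstream of the transcription start, and that of Hamp2 is chr7:30924237-30924317 on the minus strand, 136 to 56 bases upstream.
Hamp promoter: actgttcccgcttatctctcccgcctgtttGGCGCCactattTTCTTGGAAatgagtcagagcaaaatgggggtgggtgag
Hamp2 promoter: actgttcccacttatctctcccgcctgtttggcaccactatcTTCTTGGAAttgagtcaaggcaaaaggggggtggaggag
These 81 bases differ at 9 positions (88.9% identity). The substitution G34A (Hamp's base first, counted from 1 at the 5′ end of the printed stretch, then Hamp2's) lies in the BMP element, which therefore has no match in Hamp2, while the STAT element is whole in both. Searched on both strands of the 250 bases upstream of each start, GGCGCC was in 9.59% of 32851 promoter windows and TTCNNNGAA in 7.02%. A match is a description of the sequence only. Of the 6 members with a promoter in the table, Tfrc also had a GGCGCC, 89 bases upstream of its start, and Bmp6 had the core of an antioxidant response element, TGACNNNGC, 108 bases upstream (10.2% of windows).

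Among 12164 genes whose mean signal reached 10, the patterns most like that of Hamp over the 8 libraries were those of Pdcd6ip (Pearson r = 0.969 on log2 values), 9430020K01Rik (0.952), Hamp2 (0.93), Fbxo22 (0.911) and Nek9 (0.911). These values are a description of 8 libraries in 4 groups, and the genes of a library share its depth and GC composition. Apart from Hamp2, these genes varied far less than Hamp, as Pdcd6ip shows. Pdcd6ip, which encodes the adaptor Alix of membrane scission, had 941.4 and 784.0 in Cre-positive and 789.3 and 601.0 in Cre-negative hepatectomy livers, against 817.7 and 838.2 in Cre-positive and 861.3 and 931.3 in Cre-negative sham livers. Among the members, Slc40a1 (r = 0.728), Bmp6 (0.647) and Hfe2 (-0.646) had the values farthest from 0.

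Of the genes that inform hepcidin, Bmp6 encodes the BMP ligand that liver endothelial cells release when iron is plentiful. Its signal was 13.7 and 24.7 in Cre-positive and 17.4 and 9.51 in Cre-negative livers after hepatectomy, against 20.2 and 23.9 in Cre-positive and 23.0 and 22.5 in Cre-negative livers after sham. The Cre-negative hepatectomy values lay below every sham library, and the Cre-positive ones on both sides of the sham range. The log2 differences were -0.24 (95% interval -1.24 to 0.77, adjusted p = 0.819) in Cre-positive and -0.77 (95% interval -1.78 to 0.23, adjusted p = 0.333) in Cre-negative livers.

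Hfe2, the gene of hemojuvelin, a membrane-anchored co-receptor for BMP ligands, ran the other way. Its signal was 189.8 and 350.1 in Cre-positive and 431.8 and 376.1 in Cre-negative hepatectomy livers, against 156.2 and 198.2 in Cre-positive and 144.0 and 161.9 in Cre-negative sham livers. The Cre-negative hepatectomy libraries were the highest of the 8, and 1 of the Cre-positive hepatectomy libraries lay within the sham range. The difference was 0.55 (SE 0.33, 95% interval -0.23 to 1.33, adjusted p = 0.493) in Cre-positive livers, 1.39 (SE 0.33, 95% interval 0.62 to 2.17, adjusted p = 0.0972) in Cre-negative livers and 0.97 (SE 0.23, 95% interval 0.42 to 1.52, adjusted p = 0.0678) averaged over both, the lowest adjusted p of the 9 members tested. Hfe2 passed the threshold when only the 2 Cre-negative groups were fitted (adjusted p = 0.0484, with 1.72% of all genes called), and when Cre-positive hepatectomy replicate 1 (adjusted p = 0.0207, 10.3% called) or 2 (adjusted p = 0.0231, 9.99% called) was left out of the Cre-negative comparison. It passed in the average without Cre-positive hepatectomy replicate 1 (1.19, adjusted p = 0.00439, 32.7% called) or 2 (0.75, adjusted p = 0.0463, 6.18% called), and in Cre-positive livers without replicate 1 (0.99, adjusted p = 0.0325, 21.2% called). In both Cre-negative hepatectomy libraries Hfe2 stood above the genes of like GC, at 1.39 and 1.19 against medians of 0.45 and 0.27.

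Tfr2, the hepatocyte receptor that senses iron-loaded transferrin, had 4848 and 6774 in Cre-positive and 4763 and 5819 in Cre-negative livers after hepatectomy, against 7165 and 6490 in Cre-positive and 5951 and 6269 in Cre-negative livers after sham. Its hepatectomy libraries spanned 1.42-fold, narrow beside the 94.8-fold of Hamp. The Cre-negative hepatectomy libraries lay just below the sham libraries, and of the Cre-positive ones 1 lay below and 1 within their range. The differences were -0.25 in Cre-positive livers (95% interval -0.85 to 0.35, adjusted p = 0.673) and -0.21 in Cre-negative livers (95% interval -0.81 to 0.38, adjusted p = 0.651).

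The wider list of BMP and SMAD signalling to hepcidin held 23 genes, of which 22 were tested and 0 passed in either direction in the average of both genotypes (5 at an unadjusted p under 0.05, as for 23.8% of all genes, the share to set beside such counts on the lists that follow). Of these, 6 had positive and 16 negative differences, with a median of -0.24 beside 0.12 over all genes. In Cre-positive livers the median was 0.04 beside 0.02, and in Cre-negative livers -0.52 beside 0.21. Tmprss6, the hepatocyte protease that cleaves hemojuvelin and holds hepcidin down, had the highest mean signal of the list. It had 4403 and 6229 in Cre-positive and 2198 and 4518 in Cre-negative hepatectomy livers, against 5248 and 5302 in Cre-positive and 5489 and 5270 in Cre-negative sham livers, a difference of -0.39 averaged over both (adjusted p = 0.372). Furin, a protease that processes prohepcidin, differed by -0.16 (adjusted p = 0.589). Singled out after the values were seen, Bmp2, an endothelial BMP ligand that also induces hepcidin, had 20.8 and 12 in Cre-positive and 24.8 and 11.4 in Cre-negative livers after hepatectomy, against 45 and 31.9 in Cre-positive and 40.3 and 38.7 in Cre-negative livers after sham. Every hepatectomy library lay below every sham library, with a difference of -1.2 (SE 0.33, adjusted p = 0.0933). Id1, a gene that BMP signalling induces, differed by 0.99 (adjusted p = 0.141), and Smad7, a feedback inhibitor of SMAD signalling, by 0.26 (adjusted p = 0.59).

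Fam132b, also singled out after its values were seen, encodes erythroferrone, which erythroid precursors release and which lowers hepcidin. It was near the filter limit, with 0.964 and 5.05 in Cre-positive and 4.91 and 4.16 in Cre-negative hepatectomy livers, against 0.558 and 0.951 in Cre-positive and 0.850 and 1.15 in Cre-negative sham livers. Cre-positive hepatectomy replicate 1 lay within the sham range, and the other 3 hepatectomy libraries lay above it. Among the hepatectomy libraries Fam132b was lowest in Cre-positive hepatectomy replicate 1, where Hamp was highest. It was highest in Cre-positive hepatectomy replicate 2, where Hamp was above both Cre-negative hepatectomy values. What part Fam132b had in the Hamp values was not tested. The averaged difference was 1.23 on the log2(signal + 1) scale, which understates the change of low genes (SE 0.41, adjusted p = 0.139).

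Of the 14 genes on the list of IL-6 and STAT3 signalling and acute phase targets, 0 passed (4 at an unadjusted p under 0.05). There were 4 positive and 10 negative differences averaged over both genotypes, with a median of -0.4 beside 0.12 over all genes. The median was 0.1 in Cre-positive and -0.62 in Cre-negative livers. Fgg, the fibrinogen gamma chain, differed by -0.49 (adjusted p = 0.426) and Saa1, an acute phase serum amyloid, by 0.62 (adjusted p = 0.309). Rounded Saa1 values recurred at 78170 in Cre-positive hepatectomy replicate 1 and both Cre-positive sham libraries. The Saa1 difference and the list sums that include it are therefore uncertain. The summed signal of the list was 480100 and 514300 in Cre-positive and 217800 and 258000 in Cre-negative livers after hepatectomy, against 419000 and 327600 in Cre-positive and 244600 and 343100 in Cre-negative livers after sham. The Cre-positive hepatectomy sums were the highest of the 8, and those of Cre-negative hepatectomy overlapped the sham range. Singled out after their values were seen, Il6ra, the IL-6 receptor, was lowest in both Cre-negative hepatectomy libraries (147.3 and 277.1, against 478.8 to 631.0 in the sham libraries), and Socs3, a feedback inhibitor that STAT3 induces, was among the lowest in both Cre-positive hepatectomy libraries (144.1 and 71.3, against 135.3 to 1297 in the sham libraries). Their averaged differences were -0.89 (adjusted p = 0.0884) for Il6ra and -1.32 (adjusted p = 0.229) for Socs3. What part the BMP or IL-6 inputs had in the Hamp values was not tested.

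**Figure D3:**
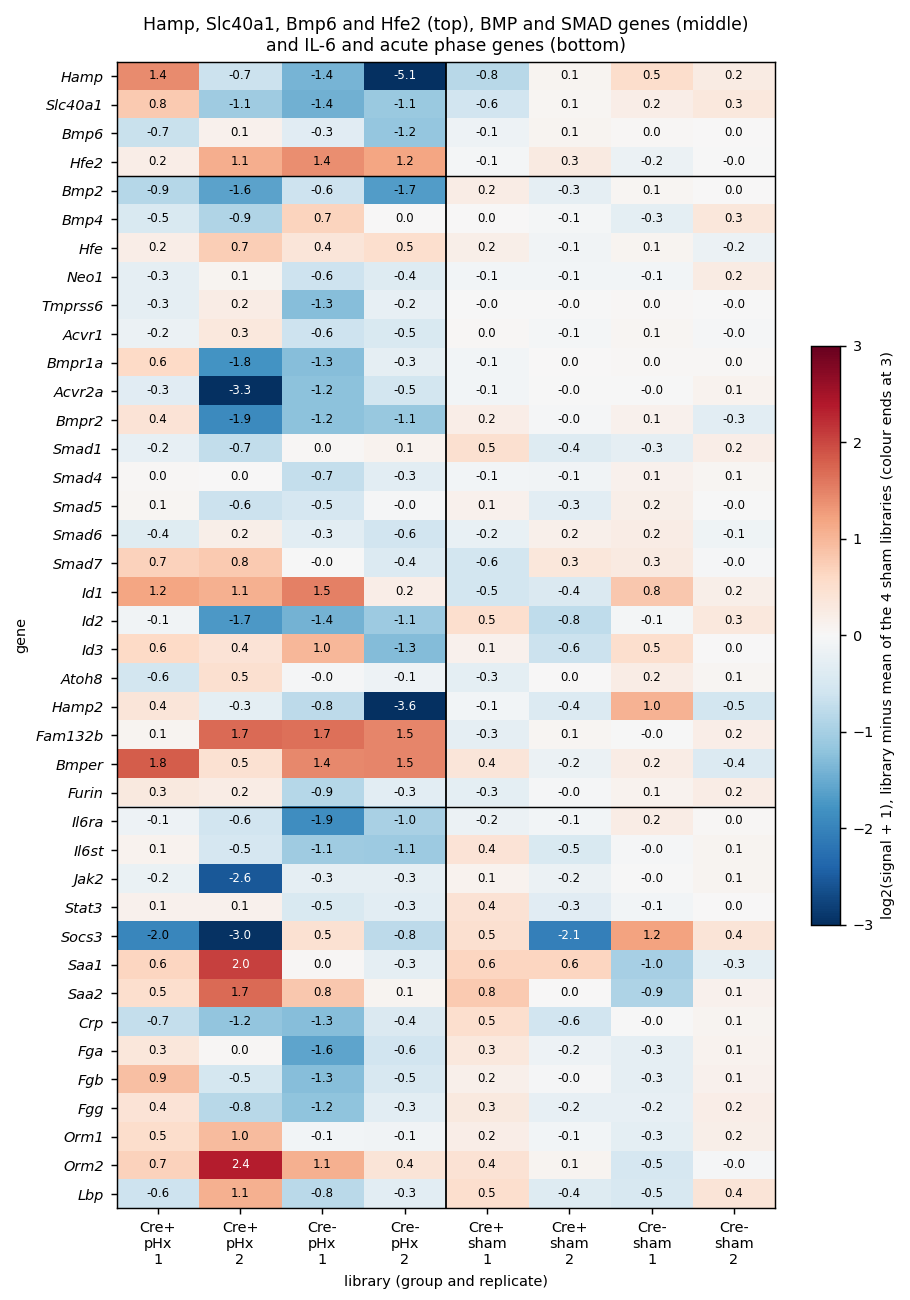
Log2 difference of each library from the mean of the sham libraries (colour, ending at 3 in either direction, with the value printed; pHx, partial hepatectomy; 1 and 2, replicates) for Hamp, Slc40a1, Bmp6, Hfe2 and the tested genes of the BMP and SMAD and IL-6 and STAT3 lists. Hamp lies at -1.4 and -5.14 and Hfe2 at 1.39 and 1.19 in the pair of Cre-negative hepatectomy libraries, whereas the Cre-positive hepatectomy libraries lie on opposite sides of 0 for Hamp and Slc40a1.

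Slc40a1 encodes ferroportin, the only known exporter of iron from cells and the target of hepcidin, high in Kupffer cells. Its signal was 901.0 and 248.2 in Cre-positive and 190.6 and 240.1 in Cre-negative hepatectomy livers, against 351.0 and 541.1 in Cre-positive and 593.6 and 644.9 in Cre-negative sham livers. Cre-positive hepatectomy replicate 1, which also held the highest Hamp signal, was above every sham library, and the other 3 hepatectomy libraries were below every one. The difference was 0.12 in Cre-positive livers (95% interval -1.2 to 1.43, adjusted p = 0.939) and -1.53 in Cre-negative livers (SE 0.56, 95% interval -2.84 to -0.21, adjusted p = 0.188), where the groups did not overlap. The Cre-positive value was -0.81 without replicate 1 and 1.05 without replicate 2. In Cre-negative livers Slc40a1 passed when only the 2 groups compared were fitted (adjusted p = 0.0475), and, at the same -1.53, when Cre-positive hepatectomy replicate 1 (adjusted p = 0.0292) or 2 (adjusted p = 0.0318) was left out of the estimate of the spread.

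Kupffer cells are a main site of Slc40a1, and their markers were set beside it. Of 11 tested, 0 passed in the averaged comparison (4 at an unadjusted p under 0.05), with 8 positive and 3 negative differences and a median of 0.37. Clec4f differed by 0.37 (adjusted p = 0.297) and Cd5l by 0.84 (adjusted p = 0.093). The summed signal of the 11 was 5207 and 5542 in Cre-positive and 3007 and 2281 in Cre-negative livers after hepatectomy, against 3048 and 2758 in Cre-positive and 2033 and 3199 in Cre-negative livers after sham. The Cre-negative hepatectomy sums lay within the sham range. In Cre-negative livers 5 markers had positive and 6 negative differences (median -0.03), with Marco at 2.44, Emr1 at -0.85 and Csf1r at -0.66. What part Kupffer cells had in the Slc40a1 values was not tested.

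Tfrc encodes transferrin receptor 1, through which dividing cells take up iron bound to transferrin. It had 208.4 and 37.4 in Cre-positive and 95.8 and 218.5 in Cre-negative hepatectomy livers, against 94.2 and 140.3 in Cre-positive and 257.0 and 99.1 in Cre-negative sham livers. The groups overlapped throughout, with differences of -0.37 in Cre-positive livers (95% interval -2.35 to 1.61, adjusted p = 0.86) and -0.14 in Cre-negative livers (95% interval -2.12 to 1.84, adjusted p = 0.942). Tfrc has 38.5% GC, and its lowest value was in Cre-positive hepatectomy replicate 2, the library that was low in such genes. It lay at -1.83 from the sham mean there, where genes of like GC had a median of -1.77. In Cre-positive hepatectomy replicate 1 it lay at 0.62 (median -0.05). In Cre-negative hepatectomy replicates 1 and 2 it lay at -0.5 and 0.68 (medians 0.03 and -0.05). The part of GC content in the Tfrc values was not tested. Intervals as wide as those of Tfrc leave even a several-fold difference undetectable.

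Trf encodes transferrin, the iron carrier of plasma, made by hepatocytes. It was listed at 0 and at 699462 in Cre-positive and at 176114 and 461037 in Cre-negative livers after hepatectomy, against at 306720 and 288073 in Cre-positive and at 295723 and 300752 in Cre-negative livers after sham. The sham libraries lay within 1.06-fold of each other and the hepatectomy libraries did not. A 0 for so abundant a transcript is taken as a failed estimate, and all 8 isoforms of Trf were at 0 in that library. Isoform values also recurred exactly between libraries: Trf-009 was 35097.7 in 3 of them. Trf held 6.04% of the signal of Cre-positive hepatectomy replicate 2 and between 2.85% and 2.99% in the sham libraries.

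Fth1 and Ftl1 encode the heavy and light chains of ferritin, the shell that stores iron. Fth1 had 17102 and 14919 in Cre-positive and 14744 and 15677 in Cre-negative hepatectomy livers, against 10899 and 11263 in Cre-positive and 13757 and 10104 in Cre-negative sham livers. Every hepatectomy library was above every sham library. The difference was 0.53 in Cre-positive livers (95% interval -0.06 to 1.12, adjusted p = 0.415), 0.37 in Cre-negative livers (95% interval -0.22 to 0.96, adjusted p = 0.426) and 0.45 averaged over both (SE 0.18, 95% interval 0.03 to 0.87, adjusted p = 0.189).

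Ftl1 had 21357 and 23100 in Cre-positive and 14454 and 20727 in Cre-negative livers after hepatectomy, against 13997 and 16365 in Cre-positive and 14483 and 11655 in Cre-negative livers after sham. The Cre-positive groups did not overlap, while 1 Cre-negative hepatectomy library lay just under a sham library of the same genotype. The averaged difference was 0.48 (SE 0.2, 95% interval 0.02 to 0.95, adjusted p = 0.196). The light chain has a near-identical copy, Ftl2, with which reads may be shared. Genes of 55% GC or more were high in Cre-positive hepatectomy replicate 2 and in both Cre-negative hepatectomy libraries (medians of 0.65, 0.6 and 0.38 from the sham mean). Ftl1 (58.1% GC) lay at 0.61 and 0.72 from the sham mean in Cre-positive hepatectomy replicates 1 and 2, and at 0.04 and 0.56 in Cre-negative ones. The medians of genes of like GC were -0.11 and 0.66 in the Cre-positive and 0.59 and 0.38 in the Cre-negative hepatectomy replicates. Fth1 (52.7% GC) lay at 0.58 and 0.38 in the Cre-positive hepatectomy replicates, where genes of like GC had medians of -0.07 and 0.45. In the Cre-negative ones it lay at 0.37 and 0.46, beside medians of 0.28 and 0.18. The part of GC content in the ferritin values was not tested.

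The iron-responsive elements of the ferritin, ferroportin and transferrin receptor messages are printed because they bind the iron regulatory proteins, which act on translation in the 5′ UTR and on message stability in the 3′ UTR, of which only stability bears on RNA signal. They were found in GENCODE transcripts of GRCm38 as a C, 5 stem bases, the loop CAGTGN in capitals, and 5 pairing bases, G-T pairs included. Such a match lay in a UTR of 160 of 21877 protein-coding genes (0.731%). Fth1 has it in the 5′ UTR at chr19:9982732-9982761 (plus strand), Ftl1 in the 5′ UTR at chr7:45459778-45459807 (minus) and Slc40a1 in the 5′ UTR at chr1:45925464-45925493 (minus). Tfrc has 4 such matches in the 3′ UTR on the plus strand, at chr16:32631219-32631248, chr16:32631598-32631627, chr16:32631663-32631692 and chr16:32631710-32631739. Elements that depart from this pattern would be missed, so the matches need not be the full set.
Fth1: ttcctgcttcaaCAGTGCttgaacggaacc
Ftl1: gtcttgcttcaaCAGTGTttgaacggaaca
Slc40a1: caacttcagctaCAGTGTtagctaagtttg
Tfrc, site 1: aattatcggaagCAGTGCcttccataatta
Tfrc, site 2: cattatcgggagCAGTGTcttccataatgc
Tfrc, site 3: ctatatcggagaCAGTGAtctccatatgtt
Tfrc, site 4: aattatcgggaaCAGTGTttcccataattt
Of these 4 genes, Tfrc alone carried the match in its 3′ UTR. RNA signal does not measure translation, so what the 5′ elements did was not measured.

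On the wider list of cellular iron uptake, export and sensing, 0 of the 22 genes tested (of 24) passed (6 at an unadjusted p under 0.05), with 6 positive and 16 negative differences and a median of -0.29 averaged over both genotypes. Cp, the gene of ceruloplasmin, the plasma ferroxidase that helps ferroportin load iron onto transferrin, had 23090 and 6394 in Cre-positive and 6436 and 9829 in Cre-negative hepatectomy livers, against 15730 and 13440 in Cre-positive and 13170 and 19420 in Cre-negative sham livers. As for Slc40a1, 3 hepatectomy libraries were below every sham library and Cre-positive hepatectomy replicate 1 above (averaged difference -0.63, adjusted p = 0.364). Lcn2, lipocalin 2, which binds bacterial iron carriers, had 14040 and 20230 in Cre-positive and 9522 and 10500 in Cre-negative livers after hepatectomy, against 10290 and 5584 in Cre-positive and 4665 and 8323 in Cre-negative livers after sham. Its averaged difference was 0.92 (adjusted p = 0.125).

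Hmox1 encodes the inducible enzyme that opens the heme ring and frees its iron. Its signal was 299.6 and 349.2 in Cre-positive and 477.7 and 291.8 in Cre-negative hepatectomy livers, against 983.8 and 208.1 in Cre-positive and 509.3 and 386.2 in Cre-negative sham livers. Here the sham libraries were the more scattered, spanning 4.73-fold against 1.64-fold for the hepatectomy libraries, and both Cre-positive sham replicates lay outside the range of all others. The differences were -0.48 in Cre-positive livers (95% interval -2.03 to 1.06, adjusted p = 0.761) and -0.25 in Cre-negative livers (95% interval -1.8 to 1.3, adjusted p = 0.852).

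Of 10 other genes of heme uptake, export and degradation tested, 0 passed (3 at an unadjusted p under 0.05), with 5 positive and 5 negative differences and a median of 0.05. Hpx, hemopexin, the plasma scavenger of free heme, had 341100 and 1452000 in Cre-positive and 101000 and 130000 in Cre-negative livers after hepatectomy, against 177600 and 125600 in Cre-positive and 97380 and 173700 in Cre-negative livers after sham. Both Cre-positive hepatectomy libraries were above the rest, but the averaged difference of 1.03 did not pass (adjusted p = 0.24). Hp, haptoglobin, which binds free hemoglobin, differed by 0.54 (adjusted p = 0.315). In heme synthesis, 0 of 8 genes passed (2 at an unadjusted p under 0.05), with a median of 0.08. Alad, which makes porphobilinogen, had 5449 and 6012 in Cre-positive and 6017 and 4040 in Cre-negative hepatectomy livers, against 3230 and 3137 in Cre-positive and 3628 and 2954 in Cre-negative sham livers. All hepatectomy libraries exceeded all sham libraries (0.72, adjusted p = 0.0831). Alas1, the rate-limiting enzyme of heme synthesis in liver, differed by 0.14 (adjusted p = 0.87).

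NRF2 is a stress-responsive factor that drives ferritin and Hmox1 among many detoxifying genes. Of 8 further targets, 2 rose and 0 fell in the averaged comparison, where 3.64% of all genes rose and 0.845% fell. There 6 differences were positive and 2 negative, with a median of 0.51 beside 0.12 over all genes. In Cre-positive livers 8 were positive and 0 negative (median 0.77 beside 0.02). In Cre-negative livers 4 were positive and 4 negative (median -0.03 beside 0.21), with 0 past the threshold in either genotype. Srxn1, sulfiredoxin, had 128.7 and 124.1 in Cre-positive and 114.7 and 85.5 in Cre-negative livers after hepatectomy, against 50.02 and 58.65 in Cre-positive and 62.2 and 54.1 in Cre-negative livers after sham, and rose by 0.98 (SE 0.19, adjusted p = 0.0391). Nqo1, a quinone reductase, had 38.7 and 75.8 in Cre-positive and 95.2 and 117.2 in Cre-negative hepatectomy livers, against 30.7 and 34.4 in Cre-positive and 29.1 and 15.3 in Cre-negative sham livers, and rose by 1.49 (SE 0.31, adjusted p = 0.0442). For both genes every hepatectomy library exceeded every sham library. Hmox1, itself a target, had values that overlapped.

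Markers of other cell types were set beside the members in the averaged comparison, in which 3.64% of all genes rose and 0.845% fell. Of 9 erythroid markers tested (of 13), 2 rose, namely Slc4a1, the anion exchanger of red cells, by 3.45 (SE 0.64, adjusted p = 0.0331) and Hba-a2, an alpha globin, by 2.36 (SE 0.5, adjusted p = 0.0461), with 7 positive and 2 negative differences and a median of 1.86. The negative ones were Alas2, the erythroid enzyme of heme synthesis, at -0.86 (adjusted p = 0.125) and Klf1, an erythroid transcription factor, at -1 (adjusted p = 0.226). Hba-a1, a near-identical copy with which Hba-a2 may share reads, differed by 2.23 (adjusted p = 0.0732). Slc4a1 had 4.14 and 40.2 in Cre-positive and 33.6 and 27.8 in Cre-negative hepatectomy livers. Its sham values lay near the filter limit, at 0.551 and 1.68 in Cre-positive and 0.487 and 1.42 in Cre-negative livers. The summed erythroid signal was 10900 and 54960 in Cre-positive and 20570 and 31600 in Cre-negative livers after hepatectomy, against 4793 and 8967 in Cre-positive and 8238 and 8501 in Cre-negative livers after sham. It was higher in every hepatectomy library than in every sham library. Among the hepatectomy libraries it was lowest in the library with the highest Hamp signal and highest in the library with the next highest.

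Of 11 markers of sinusoidal endothelial cells, which supply Bmp6 and Bmp2, 0 rose and 3 fell, and all 11 averaged differences were negative, with a median of -0.56. In Cre-positive livers 5 were positive and 6 negative (median -0.4), and in Cre-negative livers 11 were negative (median -0.98), with 0 past the threshold in either. Oit3 fell by 1.31 (adjusted p = 0.022), Kdr by 1.13 (adjusted p = 0.0413) and Fcgr2b by 1.03 (adjusted p = 0.0407), while Stab1 differed by -0.67 (adjusted p = 0.254) and Stab2 by -0.56 (adjusted p = 0.286). The summed endothelial signal was 3304 and 4297 in Cre-positive and 3751 and 1859 in Cre-negative hepatectomy livers, against 5329 and 4224 in Cre-positive and 4215 and 5420 in Cre-negative sham livers. The lowest sum was in Cre-negative hepatectomy replicate 2, the library lowest in Bmp6, Bmp2 and Hamp, but the next lowest was in Cre-positive hepatectomy replicate 1, the library highest in Hamp.

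Of 10 hepatocyte markers, 0 rose and 1 fell, Tat, a tyrosine catabolic enzyme, by 1.08 (adjusted p = 0.0356), with a median of -0.12, and the most abundant, Ahsg and Apoa2, differed by 0.35 (adjusted p = 0.412) and -0.01 (adjusted p = 0.978). Of the 10, Alb was listed at 0 in 7 libraries and Serpina1a in 2, so that their tests are of no use. The other 8 had a median of -0.16, with the same 1 fallen, and summed to 556700 and 457200 in Cre-positive and 244600 and 366700 in Cre-negative hepatectomy livers, against 395600 and 442100 in Cre-positive and 419500 and 402400 in Cre-negative sham livers. Both Cre-negative hepatectomy sums lay below every sham sum and both Cre-positive hepatectomy sums above. Rounded values of some of these markers recurred between libraries. Tat had 61720 in replicate 2 of both sham groups, and the marker Ttr 47590 in replicate 2 of both hepatectomy groups. Ahsg had 88570 in Cre-negative hepatectomy replicate 2 and Cre-positive sham replicate 1. The results of Tat and Ahsg and these sums are therefore uncertain. Among 11 stellate cell markers, with a median of -0.67, Colec10 fell by 2.31 (adjusted p = 0.0343), while Dcn differed by -0.82 (adjusted p = 0.193) and Ecm1 by -1.24 (adjusted p = 0.0517). Of 8 neutrophil and lymphocyte markers 0 passed (0 at an unadjusted p under 0.05), with S100a8 at -0.03 (adjusted p = 0.978) and S100a9 at -0.08 (adjusted p = 0.931). The part of these cells in the values of the iron genes was not tested.

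Cre-positive and Cre-negative livers were compared next, the question the study's title poses. In sham livers 0 of 9 members passed, against 0.00608% of all genes, 0 had an unadjusted p under 0.05 (0.888% of all genes did), and every adjusted p was 1. Hamp differed by -0.76 (95% interval -3.51 to 1.99) and Slc40a1 by -0.5, both with the Cre-positive libraries below the Cre-negative ones. Tfr2 differed by 0.16, with the Cre-positive libraries above. After hepatectomy 0 of 9 passed, against 0.0182% of all genes, and 1, Hamp, had an unadjusted p under 0.05 (0.016), beside 18.3% of all genes. There Hamp was higher in both Cre-positive libraries than in both Cre-negative ones, by 3.65 (SE 1.17, 95% interval 0.91 to 6.4, adjusted p = 0.196). Slc40a1 differed by 1.14 (95% interval -0.17 to 2.46, adjusted p = 0.32) and Hfe2 by -0.64 (95% interval -1.42 to 0.14, adjusted p = 0.339), also without overlap between the genotypes. Ftl1 did not overlap either (0.36, adjusted p = 0.493). With 2 libraries per group, a gene without any difference often shows no overlap. The share of all genes without overlap was not counted, here or in the comparisons above. Leaving out Cre-negative hepatectomy replicate 2 gave 1.78 for Hamp and leaving out replicate 1 gave 5.53, and that of Slc40a1 was 0.21 without Cre-positive hepatectomy replicate 1. Averaged over operations 0 of 9 passed, against 0.0122% of all genes, and 0 had an unadjusted p under 0.05 (8.53% of all genes did), with Hamp at 1.45 (95% interval -0.5 to 3.39, adjusted p = 0.642).

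The difference between the genotypes in their hepatectomy response was tested directly. It was 4.42 for Hamp (SE 1.65, 95% interval 0.53 to 8.3, unadjusted p = 0.031, adjusted p = 0.591), 1.65 for Slc40a1 (95% interval -0.21 to 3.5, adjusted p = 0.652) and -0.85 for Hfe2 (95% interval -1.95 to 0.26, adjusted p = 0.676), and 0 of 9 members passed, against 0.0122% of all genes. The interval for Hamp is wide, and 8.09% of all genes had an unadjusted p under 0.05 in the same test.

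Isoform values split some members in a way that their gene totals did not show. In the deposited isoform values, 6 members had several isoforms and 4 had 1. Of the Tfr2 signal, the isoform Trfr2-202 held 0.803% and 0.0188% in Cre-positive and 68.7% and 47.7% in Cre-negative hepatectomy livers, against 1.13% and 1.55% in Cre-positive and 1.31% and 2.06% in Cre-negative sham livers. Its share was high in both Cre-negative hepatectomy libraries and low in the other 6, while the total of Tfr2 spanned 1.42-fold over the hepatectomy libraries.

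Tfrc-004 held 1.1% and 1.96% in Cre-positive and 44.1% and 27.1% in Cre-negative livers after hepatectomy, against 2.41% and 4.48% in Cre-positive and 0.955% and 6.01% in Cre-negative livers after sham. Bmp6-202 held 8.69% and 39.5% in Cre-positive and 0.386% and 0.00153% in Cre-negative hepatectomy livers, against 23.5% and 26.1% in Cre-positive and 17.6% and 28.1% in Cre-negative sham livers. The Tfrc isoform was high, and the Bmp6 isoform low, in both Cre-negative hepatectomy libraries, without overlap with the other 6.

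Shifts of this kind were widespread in the same libraries. Over 9060 genes with several isoforms, the median share of signal moved between isoforms, hepatectomy against sham, was 7.81 percentage points in Cre-positive and 17.6 in Cre-negative livers. Tfr2 moved by 0.933 in Cre-positive and 56.5 in Cre-negative livers, Tfrc by 4.44 and 40.5, Bmp6 by 0.682 and 22.7, Hmox1 by 9.41 and 17.6, and Ftl1 by 0.419 and 7.84. Shares were averaged over the replicates of each group first, so that opposite shifts cancel. Bmp6-202, at 8.69% and 39.5% in Cre-positive hepatectomy livers, lay on either side of its sham shares. The isoforms are named as in the deposited values, their structures are not described here, and no test was run on the shares.

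**Figure D4:**
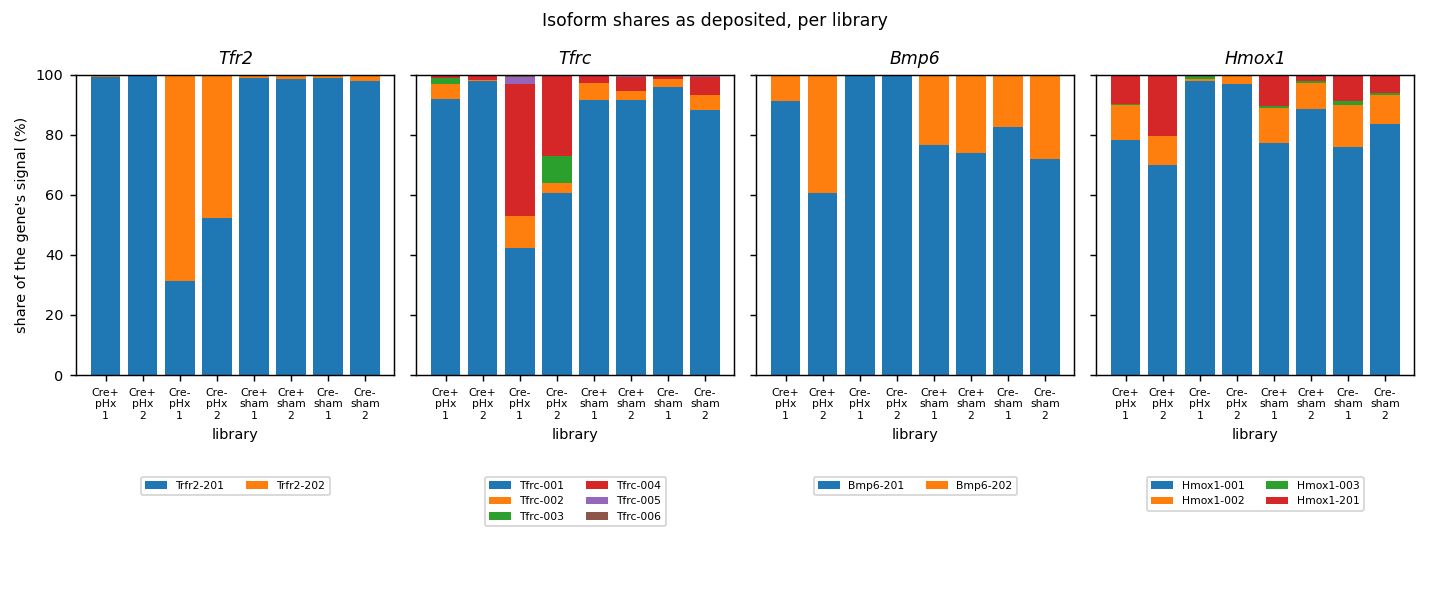
Share of the signal of Tfr2, Tfrc, Bmp6 and Hmox1 held by each isoform (percent, stacked bars, 1 bar per library; pHx, partial hepatectomy; 1 and 2, replicates). Trfr2-202 and Tfrc-004 are high in both Cre-negative hepatectomy libraries, at 68.7% and 47.7% and at 44.1% and 27.1%, and low in the other 6, and Bmp6-202 is lowest there.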

How the data were processed

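Whole liver RNA was sequenced in 8 libraries, 2 in each of 4 groups assigned from their titles. The authors deposited normalized signal values for genes and isoforms. The submitters' processing notes list TopHat, Cufflinks, mm9 and NCBIM37; versions and the normalization are not given in the sources used here. This signal is neither counts nor plain FPKM and its length scaling is not stated, so depth is unknown and levels are not compared between genes. FPKM had been assumed when the design was written, and the same test was kept. No whole reads could be recovered, and strand is not stated. An exact 0 may be a failed estimate.

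limma 3.58.1 (R 4.3.3) was fitted to log2(signal + 1) of the 16443 genes whose mean signal was 1 or more, with 1 mean per group, a shared spread and an intensity trend (4 residual and 3.25 prior degrees of freedom). All p-values are two-sided and were adjusted by Benjamini-Hochberg over all genes tested, with a threshold of 0.05. The procedure was also run on simulated data. These had independent noise in each gene and library, without the GC shift or the failed zeros seen here. That run therefore does not show how the procedure performs on these data. GC content was known for 88% of genes tested. The members, lists and tests were chosen with earlier results of these data known. Named in addition to the members are, per pathway list, up to 4 genes past the threshold or else the 2 of highest mean, per marker list also the 2 of highest mean, and the 5 genes most like Hamp. Other settings tried were pseudocounts, filters, scalings, no trend, fits of the compared groups only, and leaving out each library. Results of some marker genes are not reported here.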

Additional observations from a re-analysis of the deposited data

How the results depend on the processing

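No paired analysis was possible because the labels number the samples only in sequence, so no replicate number is shared between groups. Of 981 member values under other settings, 971 stayed on their side of the threshold, 10 newly passed, 0 dropped below it, and 54 changed sign without being called. With 1 library left out, the members past the threshold in hepatectomy against sham numbered 0 to 1 in Cre-positive livers, 0 to 2 in Cre-negative livers and 0 to 2 averaged over both. In Cre-positive livers Hfe2 passed without hepatectomy replicate 1 (0.99, adjusted p = 0.0325, 21.2% of all genes). In Cre-negative livers there were 2, Hfe2 and Slc40a1, without Cre-positive hepatectomy replicate 1 or 2, when 10.3% and 9.99% of all genes passed, and 2 when only the groups compared were fitted, when 1.72% passed. In the average, Hfe2 (1.19, adjusted p = 0.00439) and Slc40a1 (-1.17, adjusted p = 0.0101) passed without Cre-positive hepatectomy replicate 1, and Hfe2 alone (0.75, adjusted p = 0.0463) without replicate 2. The cause was not tested. The genotype comparisons and the difference of responses gave 0 under every setting run. Median-of-ratios and quantile scaling moved the averaged median of all genes to -0.03 and -0.04, against 0.12 as deposited, and left the member counts at 0.

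Each group held 2 libraries, and leaving out 1 leaves a lone library assumed to vary like the rest. For Hamp the adjusted p in Cre-negative livers was 0.088 to 0.531 over these settings. Hamp, Tfrc, Hmox1, Slc40a1 and Bmp6 had 95% intervals over 2 units wide on the log2 scale within each genotype.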

Other observations

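A receptor and an extracellular inhibitor of BMP signalling, both chosen after their values were seen, varied as follows. Bmper, which encodes a secreted protein that binds BMP ligands, had 34.1 and 12.7 in Cre-positive and 26.0 and 26.7 in Cre-negative livers after hepatectomy, against 11.96 and 7.859 in Cre-positive and 10.6 and 6.5 in Cre-negative livers after sham. Every hepatectomy library was above every sham library, and the averaged log2 difference was 1.29 (SE 0.37, adjusted p = 0.102, limma). Bmpr2, a type II BMP receptor, had 61.7 and 11.6 in Cre-positive and 19.1 and 20.5 in Cre-negative hepatectomy livers, against 53.3 and 45.4 in Cre-positive and 51.0 and 36.8 in Cre-negative sham livers. Like Slc40a1, it was above every sham library in Cre-positive hepatectomy replicate 1 and below every one in the other 3 hepatectomy libraries (averaged difference -0.96, adjusted p = 0.264). Of the other receptors on the list, Bmpr1a had the same pattern and Acvr2a was below every sham library in all hepatectomy libraries. Acvr1 was above every sham library in Cre-positive hepatectomy replicate 2 and below in the rest.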
